A study of Mus musculus with 48 samples.

Results

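The reporter activity of 11435 short DNA elements was compared between neural stem cells (NSC) of the mouse somatosensory cortex collected on embryonic day (E) 15 and those collected at E14. The elements are those with a value at both ages, out of 11709 in the deposited table, and the other 274 lacked a value at 1 age or both. They comprised 3055 elements of a class named NSC, 2926 named IPC, 2655 named Mature, 920 named E14 and 894 named Shadow, plus 985 scrambled controls, so that 10450 were not scrambled. Of the named classes, 70 NSC, 65 IPC, 108 Mature, 11 E14 and 9 Shadow elements were left out, with 11 scrambled controls. The sources used here do not say what the class names stand for. In the text "E14 class" is always the class of elements and "at E14" the age.

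In a massively parallel reporter assay, many elements are placed in plasmids and put into living cells together, and an element's activity is the RNA made from its plasmid in relation to that plasmid's DNA. For the E15 group, C57BL/6JRj embryos were electroporated in utero at E14. For the E14 group, embryos of the same strain were electroporated at E13. In both, cortices were taken 24 h later, cells were fixed with formaldehyde, stained for Pax6, Eomes (Tbr2) and Tubb3, and sorted as Pax6-positive NSC. Each age had 3 biological samples with a DNA and an RNA library each, 12 libraries in all. Tbr2-positive intermediate progenitors (IPC) and 3 further ages (E13, E16 and E17, with 2 biological samples each) were measured in the same way. The electroporated plasmid had been in the cells for a day, so each value belongs to the cells it reached that were Pax6-positive at collection. The table holds no gene expression, so the sorted cells could not be checked against marker genes.

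Neural stem cells of the embryonic cortex, the radial glia, line the ventricle and divide to renew themselves and to give rise to neurons, directly or through intermediate progenitors. The neurons of the deep layers are born first and those of the upper layers later, and in the mouse the change from one to the other falls around the ages compared here. Pax6, Sox2 and the Notch effectors Hes1 and Hes5 are known for keeping radial glia in the stem cell state, and Eomes and the Neurod genes for the step to neurons. Enhancers are short stretches of DNA that raise the transcription of a gene, often from a distance and often only in certain cells or at certain times.

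The deposited table gives 1 activity value per element and age, pooled by the authors over the 3 biological samples. No spread between animals is therefore known, and no difference between the ages was tested. Each value was divided by the median of the scrambled controls of its column, a pseudocount of 0.1 was added, log2 was taken and the mean of the scrambled controls was subtracted. An activity of 0 is thus the level of scrambled DNA, and 1 unit is a factor of 2, understated for values near 0 on the linear scale. The standard errors (SE) below are over elements and say nothing about animals. The scrambled controls set the scale of what 2 columns of inert DNA do. Their SD was 0.94 at E15 and 0.87 at E14, and the SD of their E15 minus E14 difference was 1.28. For the other steps in neural stem cells that SD was 1.82 (E14 minus E13), 1.35 (E16 minus E15) and 1.23 (E17 minus E16). The depth behind the values is unknown, and the scrambled median of the raw statistic was 0.282 at E15 and 0.537 at E14.

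The deposited table names elements of the E14 and Shadow classes by mm10 coordinates. Sequences of the elements themselves were not used here. A part of the E14 class could be shown through the RefSeq promoter windows (GRCm38.p6, 250 bases before to 50 after a gene's start) that they overlap. Of the class, 21 elements overlap such a window, 18 of them by 100 bases or more. The 3 windows below stand for the patterns described later. The Arvcf window, with an element called active at both ages, lies on the plus strand at chr16:18380533-18380832. The Gm51927 window, with an element far more active at E15, lies on the plus strand at chr11:113308715-113309014. The Gm41399 window, with an element called at E14 and not at E15, lies on the plus strand at chr15:99040986-99041285. Capitals mark the bases that belong to the element, and each sequence runs 5′ to 3′.
Arvcf: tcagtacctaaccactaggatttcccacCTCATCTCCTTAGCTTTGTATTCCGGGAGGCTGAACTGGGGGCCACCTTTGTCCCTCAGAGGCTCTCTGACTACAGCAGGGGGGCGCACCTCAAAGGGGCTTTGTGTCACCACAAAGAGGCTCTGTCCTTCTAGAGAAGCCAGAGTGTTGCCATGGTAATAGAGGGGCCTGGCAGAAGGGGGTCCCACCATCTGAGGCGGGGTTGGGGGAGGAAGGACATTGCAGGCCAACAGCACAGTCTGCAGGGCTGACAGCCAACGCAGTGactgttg
Gm51927: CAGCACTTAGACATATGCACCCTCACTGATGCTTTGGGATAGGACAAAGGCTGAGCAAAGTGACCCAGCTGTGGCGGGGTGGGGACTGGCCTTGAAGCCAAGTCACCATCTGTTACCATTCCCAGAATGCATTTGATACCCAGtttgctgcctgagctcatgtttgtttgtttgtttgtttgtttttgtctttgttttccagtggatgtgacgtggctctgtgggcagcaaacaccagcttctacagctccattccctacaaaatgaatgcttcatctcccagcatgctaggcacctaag
Gm41399: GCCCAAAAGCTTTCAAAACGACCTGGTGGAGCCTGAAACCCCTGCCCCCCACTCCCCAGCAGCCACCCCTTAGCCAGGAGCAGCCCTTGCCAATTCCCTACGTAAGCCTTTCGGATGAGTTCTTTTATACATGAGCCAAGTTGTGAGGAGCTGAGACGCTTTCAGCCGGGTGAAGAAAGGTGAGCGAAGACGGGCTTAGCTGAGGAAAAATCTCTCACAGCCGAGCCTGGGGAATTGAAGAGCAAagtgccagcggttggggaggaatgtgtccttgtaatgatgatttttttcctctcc
The element at Arvcf, which encodes a member of the catenin family, lies at chr16:18380560-18380825, so that the window holds all 265 bases of it. The Gm51927 window holds only 143 bases of its element and the Gm41399 window 245. The Arvcf element stood at 1.27 at E15 and 2.23 at E14. The element at Gm51927 (chr11:113308592-113308857) stood at 2.32 at E15 and -1.68 at E14, and the one at Gm41399 (chr15:99040965-99041230) at 0.95 at E15 and 1.95 at E14. The E-box CAGATG, read on both strands, occurs in the element part of the Arvcf and Gm51927 windows. Anywhere in the window, it occurs in 17.1% of all 32544 promoter windows. Among windows not shown, it is also in the element part at Gm42121 and Gm51750, called at neither age, and at Gm52070, called at E15 only. Whether the string goes with activity was not tested. The E-box CAGCTG occurs in the element part of the Gm51927 window and in 16.4% of all windows. Neither string is in the Gm41399 window.

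As classes, the elements were about as active at E15 as at E14. The NSC class averaged 0.27 at E15 and 0.28 at E14, a difference of -0.01 ± 0.03 (SE over 3055 elements). The E14 class averaged 0.30 at E15 and 0.29 at E14, a difference of 0.00 ± 0.04 over 920 elements. The IPC class was lower at both ages, at 0.14 at E15 and 0.10 at E14, a difference of 0.04 ± 0.02. The Mature class averaged -0.03 at E15 and 0.03 at E14, a difference of -0.05 ± 0.03. The Shadow class was level with scrambled DNA, at 0.00 at E15 and 0.01 at E14. The scrambled controls themselves differed by 0.01 ± 0.04. No class mean moved by more than 0.06, which is small beside the gap of 0.27 at E15 and 0.28 at E14 between the NSC class and the controls. In the authors' MAD score, a linear scale in units of the controls' scaled median absolute deviation, the E15 minus E14 difference of the E14 class was -0.33 ± 0.15. That scale gives more weight to the most active elements.

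**Figure D1:**
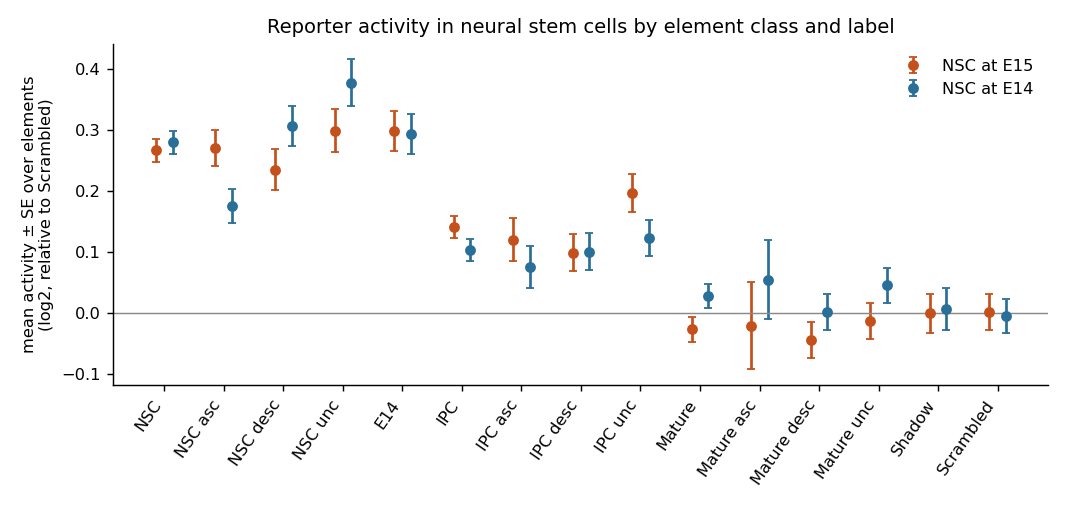
Mean reporter activity (log2, relative to the scrambled controls) in neural stem cells at E15 (orange) and E14 (blue) for each class and each name label within a class. Bars are the SE over elements, not over animals; the NSC and E14 classes stand near 0.3 at both ages and the Shadow class near 0.

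Set beside the other steps of the time course, the step from E14 to E15 was a small one for the NSC class. The class mean in neural stem cells changed by 0.20 ± 0.03 between E13 and E14, by -0.01 ± 0.03 between E14 and E15, by 0.00 ± 0.03 between E15 and E16, and by 0.09 ± 0.03 between E16 and E17. These steps share their columns, so a high or low column enters 2 of them with opposite signs. In intermediate progenitors the E15 minus E14 difference of the NSC class was likewise near 0, at -0.01 ± 0.02 over the 3005 elements with values in all 4 columns.

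Elements of the E14 class have partners in the Shadow class that carry the same coordinates. In 828 such pairs with values at both ages, the E14-class element exceeded its Shadow partner by 0.32 ± 0.05 at E15 and by 0.27 ± 0.05 at E14. The partner was the lower one in 61.2% of pairs at E15 and in 58.9% at E14. The gap changed by 0.04 ± 0.07 over the pairs.

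Within the NSC class, elements with the label asc in their names stood apart from those labelled desc or unc in the sign of their difference. The labels are not explained in the sources used here. NSC elements labelled asc averaged 0.27 at E15 and 0.18 at E14, a difference of 0.09 ± 0.04 over 1115 elements. Those labelled desc averaged 0.23 at E15 and 0.31 at E14, a difference of -0.07 ± 0.04 over 1048 elements. Those labelled unc averaged 0.30 at E15 and 0.38 at E14, a difference of -0.08 ± 0.05 over 892 elements. Asc minus desc was thus 0.03 ± 0.04 at E15, against -0.13 ± 0.04 at E14. The change of this gap was 0.17 ± 0.06, and with medians in place of means it was 0.08. In the authors' MAD scores it was 0.35 ± 0.28.

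The same change was not seen with the same elements in intermediate progenitors, where the asc minus desc gap of the NSC class changed by -0.04 ± 0.06 between E14 and E15. The change in neural stem cells minus that in intermediate progenitors was 0.20 ± 0.08 over elements with values in all 4 columns. In neural stem cells the asc minus desc gap changed by 0.05 ± 0.06 in the IPC class and by -0.03 ± 0.11 in the Mature class. At the other steps there, NSC asc elements changed by 0.16 ± 0.05 (E13 to E14), 0.02 ± 0.05 (E15 to E16) and 0.18 ± 0.04 (E16 to E17). NSC desc elements changed by 0.24 ± 0.06, -0.02 ± 0.05 and -0.02 ± 0.05 at the same steps. The labels thus also parted from E16 to E17, in the same direction as from E14 to E15. These errors are over elements, and how far such a gap varies between animals is not known.

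Elements above the upper control limit were somewhat fewer at E15 in the NSC and E14 classes. The upper limit of a column, which 2.5% of the scrambled controls exceed by construction, was 2.07 at E15 and 2.06 at E14. Over all 10450 non-scrambled elements, 3.46% exceeded it at E15 and 4.11% at E14. In the NSC class 130 elements (4.26%, 95% Wilson interval 3.60 to 5.03) did so at E15 and 161 (5.27%, 4.53 to 6.12) at E14. In the E14 class 31 (3.37%, 2.38 to 4.74) did so at E15 and 53 (5.76%, 4.43 to 7.46) at E14. Intervals for both classes overlapped between the ages. With limits that only 0.5% of the controls exceed, the lower shares at E15 were not kept. The shares were then 1.34% of the NSC class at E15 and 0.917% at E14, and 0.652% of the E14 class at E15 and 0.543% at E14. Few elements and controls lie beyond so strict a limit. In the IPC class 3.21% (2.63 to 3.92) exceeded the limit at E15 and 2.97% (2.42 to 3.65) at E14, the last below the overall share at that age. The intervals cover the counting of elements and leave out the error of the limits, which rest on 985 controls.

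By label, NSC elements above the limit were fewer at E15 among desc and unc. NSC desc elements exceeded the limit in 4.68% of cases at E15 and 6.01% at E14. For NSC unc the shares were 4.37% at E15 and 6.73% at E14. For NSC asc they were 3.77% at E15 and 3.41% at E14. The intervals of each label overlapped between the ages.

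Single elements differed widely between the ages, by little more than scrambled DNA did. The upper limit of the difference among the controls was 2.49 and the lower limit -2.68. Above the upper limit, and so higher at E15, lay 370 non-scrambled elements (3.54%). Below the lower limit, and so lower at E15, lay 339 (3.24%). By construction 2.5% of controls lie on each side. The limits have their own error, with order-statistic intervals of 2.26 to 2.93 and -2.93 to -2.24. At the farther bounds 2.26% of elements lay above and 2.49% below, and at the nearer bounds 4.56% and 5.00%. The share of elements beyond the controls is therefore not told apart from that of the controls themselves.

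On the log2 scale the classes were alike in this. In the NSC class 107 elements (3.50%) were above and 102 (3.34%) below. In the IPC class 99 (3.38%) were above and 80 (2.73%) below. In the Mature class 108 (4.07%) were above and 104 (3.92%) below. In the E14 class 24 (2.61%) were above and 24 below, and in the Shadow class 32 (3.58%) above and 29 (3.24%) below. Each of these shares is near the overall one. Mature elements labelled asc had the widest spread of all labels, with an SD of the difference of 1.74, and 22 of 306 (7.19%, Wilson interval 4.80 to 10.6) lay above and 14 (4.58%, 2.75 to 7.53) below.

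**Figure D2:**
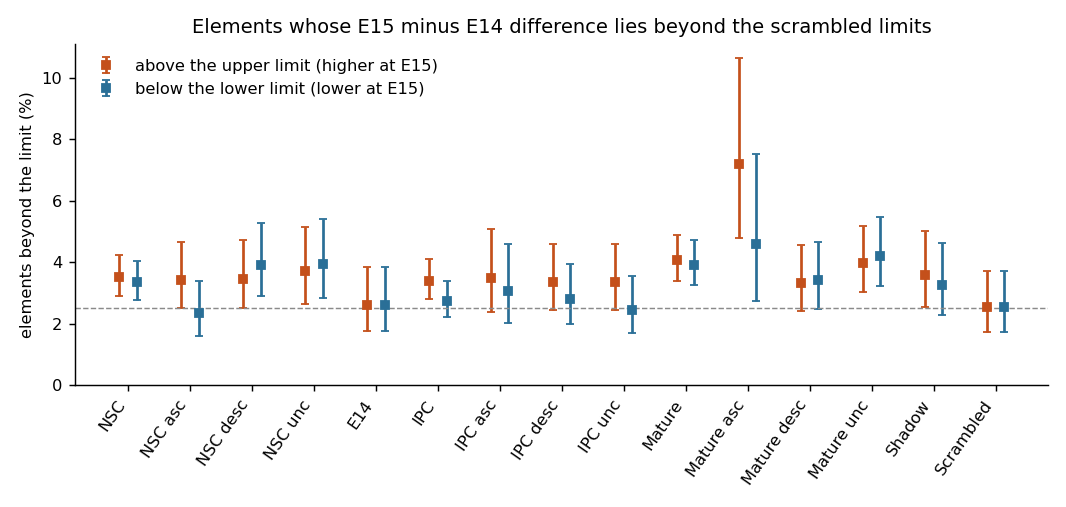
Share of elements (%) whose E15 minus E14 difference in neural stem cells lies above the upper (orange) or below the lower (blue) limit of the scrambled controls, by class and label, with 95% Wilson intervals. The dashed line is the 2.5% that the controls hold on each side by construction; most shares sit between 2.5% and 4%, and only the interval of Mature asc above the upper limit starts above 4%.

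Across elements, activity at E15 followed activity at E14 weakly. Spearman's correlation between the ages was 0.18 in the E14 class (n = 920), 0.11 in the IPC class (n = 2926) and 0.10 in the NSC class (n = 3055). It was 0.03 in the Mature class, 0.02 in the Shadow class and -0.01 in the scrambled controls. The classes whose mean was near that of scrambled DNA thus had next to no correlation. The points share the 2 pooled columns, and elements are not independent replicates.

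**Figure D3:**
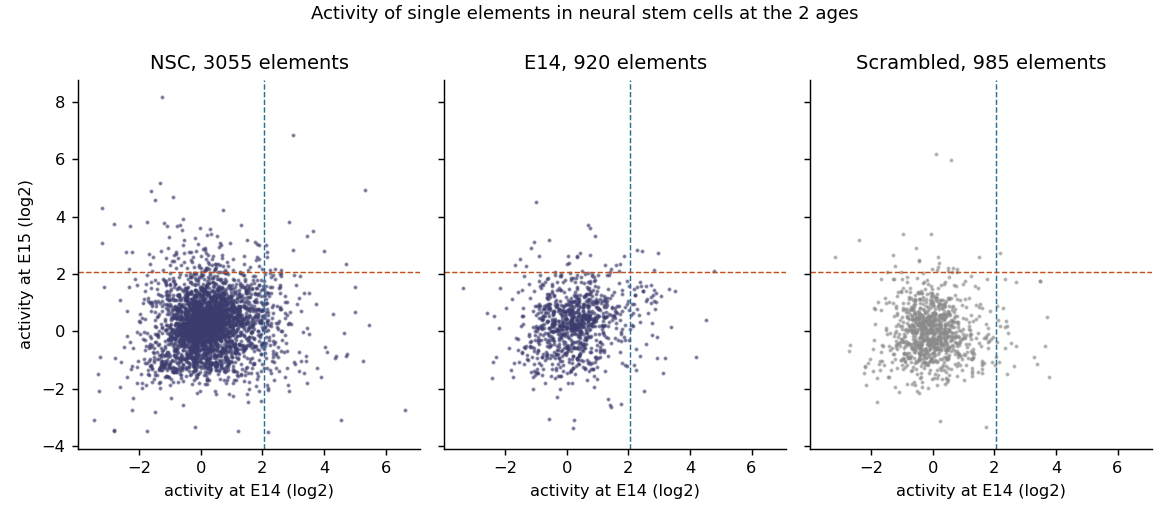
Activity of single elements in neural stem cells at E15 (vertical axis) against E14 (horizontal axis), both log2 relative to the scrambled controls, for the NSC class, the E14 class and the controls. Dashed lines are the upper control limits of 2.07 at E15 and 2.06 at E14; 14 NSC, 5 E14 and 1 scrambled element lie above both.

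Above the upper limit of both columns lay 35 of the 10450 non-scrambled elements, against 1 of the 985 scrambled controls. The 35 comprised 14 of the NSC class, 8 of the IPC class, 6 of the Mature class, 5 of the E14 class and 2 of the Shadow class. Of the 14 NSC elements, 8 were labelled desc (of 1048), 5 unc (of 892) and 1 asc (of 1115).

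The authors' own calls, an adjusted p under 0.05 against the scrambled controls of the same column, took in more elements and also changed from one age to the other. Over all non-scrambled elements 12.5% were called at E15 and 14.5% at E14. The NSC class was called in 15.2% of cases at E15 and 18.4% at E14, and the E14 class in 15.5% at E15 and 17.6% at E14. The Shadow class was called in 9.51% at E15 and 10.6% at E14. The scrambled controls were called in 8.12% at E15 and 9.54% at E14, so part of each share is what scrambled DNA gives.

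Calls were shared in part. Of the non-scrambled elements, 284 were called at both ages, 1020 at E15 only and 1235 at E14 only. Of those called at E14, 18.7% were called at E15 as well (Wilson interval 16.8 to 20.7). Of those not called at E14, 11.4% (10.8 to 12.1) were called at E15. In the NSC class 118 were called at both ages, 346 at E15 only and 443 at E14 only. In the E14 class 40 were called at both ages, 103 at E15 only and 122 at E14 only. In the E14 class 24.7% of the elements called at E14 were called at E15 as well (Wilson interval 18.7 to 31.9), against 13.6% (11.3 to 16.2) of those not called at E14. In the NSC class the share was 21.0% of those called at E14 and 13.9% of those not called. In the scrambled controls it was 10.6% (5.88 to 18.5) of those called and 7.86% (6.27 to 9.81) of those not called.

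In the NSC and E14 classes, elements called at both ages were also more active in the neural stem cell columns that took no part in the calls. In the E14 class they averaged 1.44 in neural stem cells at E13, against 0.07 for elements called at neither age, a gap of 1.38 ± 0.33 over 39 and 646 elements. The gap was 0.37 ± 0.25 at E16 and 0.57 ± 0.16 at E17. In the NSC class the gap was 0.56 ± 0.18 at E13, 0.33 ± 0.14 at E16 and 0.30 ± 0.09 at E17. In intermediate progenitors the same NSC elements exceeded those called at neither age by 0.30 ± 0.12 at E15 and by 0.20 ± 0.09 at E14. Their gap there was 0.22 ± 0.12 at E13, 0.32 ± 0.16 at E16 and 0.02 ± 0.11 at E17. For the E14 class the gap in intermediate progenitors was 0.20 ± 0.21 at E15 and -0.03 ± 0.16 at E14. It was 0.29 ± 0.31 at E13, 0.53 ± 0.28 at E16 and 0.09 ± 0.16 at E17. The elements called at both ages thus stood higher in neural stem cells at all 3 other ages in both classes, by more than 2 SE in all but the E14 class at E16. In neural stem cells the gap of the IPC class was 0.63 ± 0.27 at E13, 0.18 ± 0.16 at E16 and 0.06 ± 0.11 at E17. That of the Mature class was 0.48 ± 0.27 at E13, -0.11 ± 0.21 at E16 and -0.15 ± 0.12 at E17. That of the Shadow class, with at most 14 elements called at both ages, was -0.29 ± 0.43 at E13, 0.62 ± 0.56 at E16 and 0.05 ± 0.27 at E17.

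Elements called at a single age averaged less than those called at both in neural stem cells at E13, E16 and E17 in the NSC and E14 classes. At E17 in neural stem cells, NSC-class elements called at E15 only averaged 0.31 and those called at E14 only 0.48, a gap of -0.17 ± 0.07. In the E14 class the averages were 0.31 for E15 only and 0.57 for E14 only, a gap of -0.26 ± 0.11. Elements called at E14 only, the farther age, were thus the more active group at E17. At E16 the gaps had the same sign and were within 2 SE, at -0.14 ± 0.10 in the NSC class and -0.19 ± 0.19 in the E14 class.

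**Figure D4:**
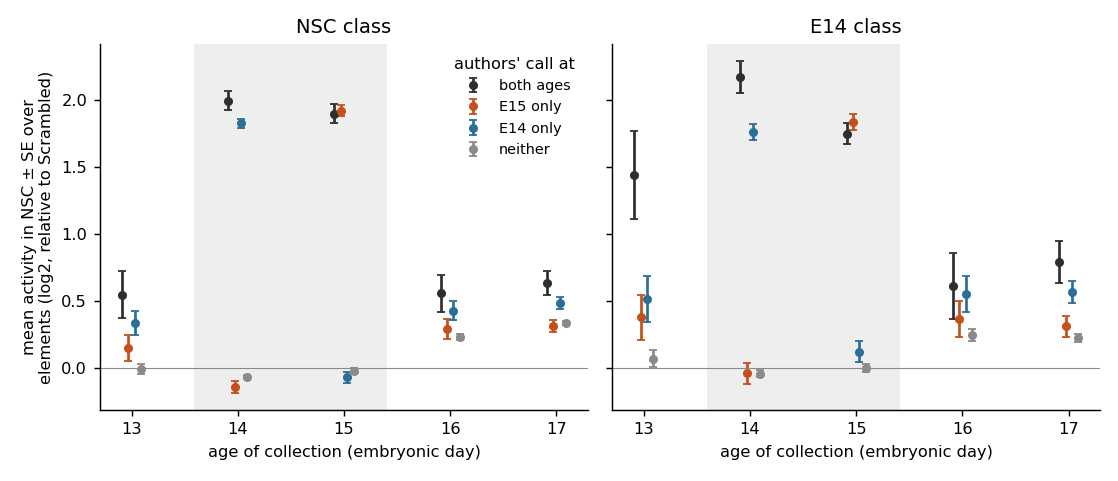
Mean activity (log2, relative to the scrambled controls) in neural stem cells at E13 to E17 of elements grouped by the authors' calls at E15 and E14, for the NSC and E14 classes. Bars are SE over elements; the shaded ages made the groups, and outside them the elements called at both ages stand highest in each panel at every age, at 1.44 at E13 in the E14 class.

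Elements picked for a large difference between the ages stood at about the same level in the later columns, whichever direction they were picked for. Over all non-scrambled elements, those above the upper limit exceeded those below the lower limit in neural stem cells by 0.11 ± 0.13 at E16, by 0.01 ± 0.08 at E17 and by 0.27 ± 0.15 at E13. Element by element, the E15 minus E14 difference in neural stem cells was also nearly unrelated to the same difference in intermediate progenitors. Spearman's correlation was 0.04 in the NSC, IPC, E14 and Shadow classes, 0.08 in the Mature class and 0.03 in the scrambled controls. The 2 differences had the same sign in 51.5% of NSC elements and 49.7% of controls.

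Within the E14 class the elements could be placed in the genome (mm10). A gene named below is the protein-coding gene whose span holds the element or is nearest to it, which gives a location and not a target. Of the 920 elements, 522 (56.7%) lay within a gene span. They averaged 0.29 at E15 and 0.26 at E14, and the 398 outside gene spans averaged 0.30 at E15 and 0.34 at E14. The differences, 0.04 ± 0.05 and -0.04 ± 0.07, were each within 1 SE of 0. The 80 elements within 2 kb of an annotated gene start differed by 0.04 ± 0.15.

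Of the 24 elements of the E14 class above the upper limit of the difference, 11 also passed the column limit at E15 and were called there. That is 11 of 920, against 190 of all 10450 non-scrambled elements and 13 of the 985 scrambled controls. Scrambled DNA thus passed this rule about as often. The 10 with the largest differences are described here; their size is what picked them and is no evidence of a change. The first lay within Arhgef28 (chr13:98025363-98025628). It stood at 4.52 at E15 and -1.01 at E14, a difference of 5.52, and at 1.34 at E16 and -1.07 at E17. It was the most active of the 10 at E15, and stood about 1 unit below the control mean at E14 and again at E17.

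An element within Cep112, a centrosomal protein gene, stood at 3.12 at E15 and -1.05 at E14, with 2.07 at E13, 0.18 at E16 and 0.86 at E17. An element 23.2 kb from Dok5, an adaptor of receptor tyrosine kinases, stood at 2.92 at E15 and -1.17 at E14. It had its highest value, 5.45, at E13. These elements were thus low at E14 between higher values on either side.

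The element in the Gm51927 window shown above also lies within Slc39a11, a zinc transporter gene. It stood at 2.32 at E15 and -1.68 at E14 in neural stem cells, with 2.14 at E17. In intermediate progenitors it went the other way, at 0.12 at E15 and 5.37 at E14, after 6.83 at E13. Elements near Ap1ar (2.53 at E15, -1.51 at E14), near Cadm1 (3.20 at E15, -0.58 at E14), within Clmp (2.29 at E15, -1.32 at E14) and near Sv2b (2.65 at E15, -0.90 at E14) reached at most 0.42 in neural stem cells at any age but E15. Cadm1 and Clmp encode adhesion molecules of the immunoglobulin family and Sv2b a synaptic vesicle protein.

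An element within Peak1, a pseudokinase gene, stood at 3.71 at E15 and 0.67 at E14, and at -1.12 at E16 and -0.05 at E17. The element 0.126 kb from Dcakd had another course. It stood at 3.60 at E15 and 0.75 at E14, and it was still high at E16 (2.25) and E17 (1.97). Of the 10 elements, it alone exceeded 1.5 at both later ages.

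Of the 24 elements below the lower limit, 14 passed the column limit and the authors' call at E14. That is 14 of 920, against 200 of all 10450 non-scrambled elements and 11 of the 985 scrambled controls. The largest difference was that of an element 32.2 kb from Gm829 (chr4:45755900-45756165), at -0.90 at E15 and 4.19 at E14, a difference of -5.09. It stood at 2.02 at E13 and at -0.36 at E16 and -0.74 at E17. An element near Gm42323 stood at -2.08 at E15 and 2.51 at E14, with 2.14 at E13. Both exceeded 2 at E13 and E14 and stood below the control mean at the 3 later ages. The controls spread more widely between E13 and E14 than between E14 and E15 (SD of the difference 1.82 against 1.28).

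An element within Nav1, a microtubule-associated gene of growing neurons, had a like course, with -0.85 at E15 and 2.38 at E14, and 2.33 at E13 and -2.39 at E16. So had an element 0.636 kb from Lamp5, a membrane protein of the lysosome family found in neurons, with 0.15 at E15 and 3.39 at E14, and 3.65 at E13 and -1.22 at E16. In intermediate progenitors the Lamp5 element was high at E15 (4.35) and low at E14 (0.20). These 4 elements make up all those of the 10 that exceeded 2 at both E13 and E14.

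Elements within Opcml, an adhesion molecule gene (-1.46 at E15, 3.12 at E14), and near Spry2, an inhibitor of growth factor signalling (-0.91 at E15, 2.94 at E14), were high again at E16, at 2.67 for the element near Spry2. Elements near Nectin3 (0.39 at E15, 4.51 at E14) and Cnr1, a cannabinoid receptor gene (-0.93 at E15, 3.18 at E14), and within Fhdc1 (-1.34 at E15, 2.25 at E14) and Pitrm1 (-1.17 at E15, 2.19 at E14), reached at most 0.64 in neural stem cells at any age but E14. The courses of the 10 elements thus differed, and a low value at E15 was followed by a high one at E16 in 2 of them. Each point is 1 pooled value, and controls picked by the same rule were not examined. Across the E14 class, Spearman's correlation between 2 ages in neural stem cells ran from 0.06 to 0.21, so the courses are a description only.

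**Figure D5:**
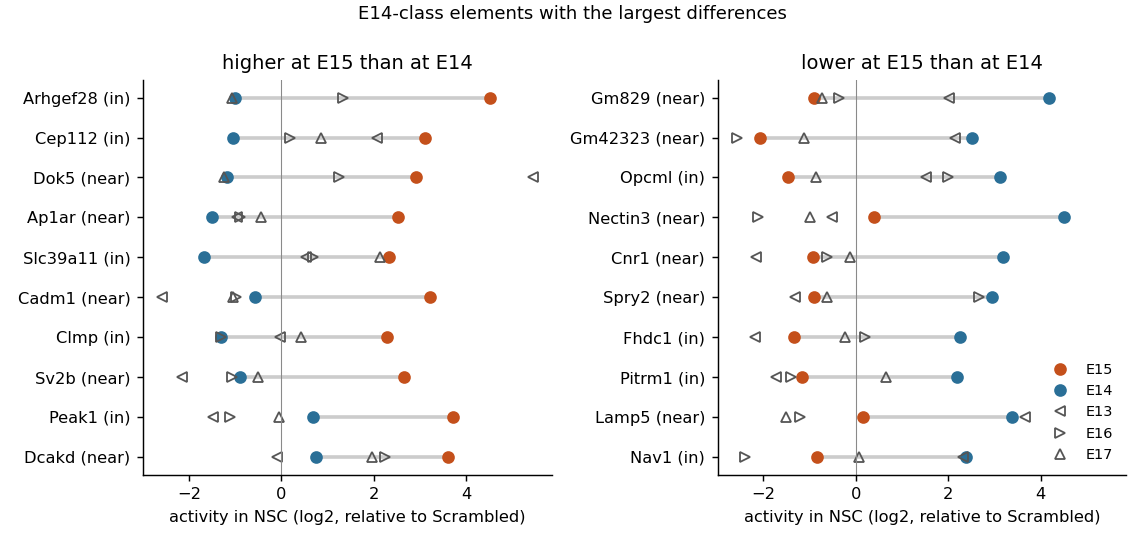
Activity in neural stem cells (log2, relative to the scrambled controls) of the 10 E14-class elements with the largest E15 minus E14 difference in each direction, at E15 (orange), E14 (blue) and, as open triangles, E13, E16 and E17. Elements are listed by the gene they lie in or nearest to; the Dcakd element is the one in the left panel that stays near 2 at both E16 (2.25) and E17 (1.97).

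Elements active at both ages formed a small set. The 5 elements of the E14 class above both column limits lay near Mrpl39 and Hes1 and within Dusp10, Ccn4 and Ina. The one near Mrpl39, a mitochondrial ribosomal protein gene, had the highest mean of the 2 ages, with 2.12 at E15 and 4.78 at E14. The element 63.8 kb from Hes1 (chr16:30001301-30001566), the Notch effector of radial glia, stood at 2.73 at E15 and 2.95 at E14. It stood at 2.33 at E13 and then at -1.16 at E16 and -0.28 at E17. It thus exceeded 2 at the first 3 ages and stood below the control mean at the last ones.

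The element within Dusp10, which encodes a phosphatase of MAP kinases (chr1:184066115-184066380), stood at 2.82 at E15 and 2.44 at E14, and remained at 2.55 at E16 and 1.29 at E17. In intermediate progenitors it stood at 2.71 at E15 and 1.33 at E14. The element within Ccn4, a secreted matrix protein gene, stood at 2.83 at E15 and 2.29 at E14, and that within Ina, a neuronal intermediate filament gene, at 2.14 at E15 and 2.82 at E14. The next highest means of the 2 ages belonged to elements at 69.5 kb from Dok5 (1.42 at E15, 3.52 at E14), near Nectin3, within Kcnj10, a potassium channel gene of glia (1.48 at E15, 3.30 at E14), near Fam120b (2.64 at E15, 1.84 at E14) and within Peak1. The elements near Nectin3 and within Peak1 owe their place to 1 age each, as their values above show.

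Loci of radial glial genes held few elements, and all but 1 of their differences lay inside the limits of the controls. Of the 15 genes listed for neural stem cells, 9 had an E14-class element within them or nearest to them, 15 elements in all. They averaged 0.22 at E15 and 0.80 at E14, and 4 of the 15 were higher at E15, against 464 of 920 in the class. Of these 15, 3 were called at E15 and 6 at E14, against 143 (15.5%) at E15 and 162 (17.6%) at E14 of the 920. Beyond a limit of the difference lay 1 of the 15, against 24 above and 24 below in the class. Their median difference was -0.22, against 0.01 in the class. Several of the 15 belong to the same genes, Pax6 and Sox2. The list is short and was drawn up with earlier results of these data known, and nothing was tested on it.

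The element beyond the limit lay 214.7 kb from Sox2, at -2.55 at E15 and 1.39 at E14. Its value at E14 was under the column limit of 2.06, and that at E15 was far below the control mean. A second element, 90.8 kb from Sox2, stood at 0.96 at E15 and 2.11 at E14, and another, 426.1 kb away, at 1.69 at E15 and 0.75 at E14. The elements near Sox2 thus did not share a direction. Pax6, whose protein was used for the sort, holds 5 elements. Of these, 4 were lower at E15, with the widest gap at chr2:105673123-105673388 (0.28 at E15, 1.59 at E14). The element at chr2:105686827-105687092 stood at 0.37 at E15 and 1.17 at E14. The other 3 stood at 0.40, 0.48 and -1.13 at E15, against 0.49, 0.64 and -1.39 at E14. All 5 differences lay well inside the limits.

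Other radial glial loci went both ways. The element 10.7 kb from Hes5 stood at 0.19 at E15 and 1.16 at E14, and that near Slc1a3, the glutamate transporter of radial glia, at -1.29 at E15 and 0.58 at E14. The element 42.9 kb from Hopx, a marker of outer radial glia in human cortex, stood at 1.92 at E15 and 0.82 at E14 and was called at E15 only. That within Lhx2, a cortical selector gene, stood at 0.36 at E15 and -0.37 at E14.

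Loci of neurogenic genes held few elements, and no trend can be read from them. Of the 14 genes listed for intermediate progenitors and neurogenesis, 5 had an element, 7 elements in all. The 7 averaged 0.55 at E15 and -0.19 at E14, and 5 of them were higher at E15, against 464 of 920 in the class. This list too was drawn up with earlier results known, and nothing was tested on it. None lay beyond a limit of the difference, and 1 was called at E15 and 0 at E14, which at the class shares of 15.5% at E15 and 17.6% at E14 is near the background. The called element lay 495.8 kb from Sox11, a transcription factor gene of young neurons, at 1.81 at E15 and 0.14 at E14. In intermediate progenitors it stood at 3.66 at E15 and 2.35 at E14. Another element near Sox11 stood at 0.92 at E15 and -0.20 at E14, and one near Eomes at 0.03 at E15 and -0.96 at E14. The elements near Neurod2 stood at 0.73 and 0.57 at E15, against -0.24 and 0.65 at E14. That near Gadd45g stood at -0.52 at E15 and -0.30 at E14, and that near Mfng at 0.34 at E15 and -0.40 at E14.

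Loci of layer genes showed no shared course. In the class as a whole, 464 of 920 elements were higher at E15, and 24 lay beyond each limit of the difference. The 3 elements at deep-layer genes, within Foxp2 and Sox5, averaged 0.72 at E15 and 0.47 at E14, and all 3 were slightly higher at E15. The 5 elements at upper-layer genes averaged -0.05 at E15 and 0.53 at E14, and 2 were higher at E15. Of these, the element near Mdga1, a cell surface protein gene of upper-layer neurons, lay below the lower limit, at -1.22 at E15 and 1.95 at E14. The 4 elements near Pou3f3 lay between -0.21 and 1.01 at E15, and between -0.34 and 0.60 at E14.

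Genes known for the change of neural stem cells with age, or for the later birth of glia, had 14 elements. They averaged 0.25 at E15 and 0.24 at E14, 6 were higher at E15, and none lay beyond a limit. In the class 464 of 920 were higher at E15, and 24 lay beyond each limit. Of the 14, 2 were called at E15 and 2 at E14, against 143 and 162 of the 920. The element 32.6 kb from Olig2, a factor of oligodendrocyte precursors, came nearest to the upper limit, at 2.08 at E15 and -0.38 at E14, a difference of 2.46. The element within Hmga2, a chromatin protein gene known to decline as neural stem cells age, stood at 0.99 at E15 and 2.73 at E14, and at 4.24 at E13 and 3.30 at E16. Of the 2 elements near Sox9, one was at 0.02 at E15 and 0.45 at E14 and the other at -0.29 at E15 and 1.90 at E14. The 4 elements at Nfia, a gliogenic factor gene, stood higher at E15 in 3 cases, by 0.52 to 1.53.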

How the data were processed

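The deposited table has 30 value columns, with 3 per cell type at each age. The submitters' processing notes name cutadapt and the build mm10. Aligner, barcode counting and the tool behind the activities are not given in the sources. The first column of each set is an activity score, named statistic per the file headers, on a linear scale, which the authors pooled over biological samples before they deposited it. The authors' MAD score is the distance of that statistic from the scrambled median in units of 1.4826 times the scrambled median absolute deviation. The authors' deposited p-value is a one-sided normal p of the MAD score, adjusted by Benjamini-Hochberg within its column. Both were checked by computing them again (largest difference 7.96e-13 and 8.91e-15). The other 8 columns of MAD scores were not used.

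Activities were computed with pandas 2.3.3 and numpy 2.4.6 as described above, with a pseudocount of 0.1. Shares have 95% Wilson intervals (scipy 1.17.1). The limits leave 2.5% of the scrambled controls on each side, and the counting procedure was tested on simulated data, of which no value is given. Elements were assigned to the spans of 21896 protein-coding genes of GRCm38.p6. The elements named are the 10 of the E14 class with the largest difference in each direction among those beyond the limit, above the column limit and called at the higher age, the 10 of highest mean over both ages, and examples from 5 gene lists. The members and lists were chosen with earlier results of these data known. With pooled values no test across biological samples was made.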

Additional observations from a re-analysis of the deposited data

How the results depend on the processing

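Each value was recomputed with a pseudocount of 0.5 or 0.01, centred on the scrambled median, with each age divided by its scrambled SD, from the authors' MAD scores, over elements with values in all 10 columns, over elements with a statistic of at least 0.5 of the scrambled median at either age, and with medians over elements. Apart from the MAD scores, these gave class differences of -0.03 to 0.00 for the NSC class, -0.02 to 0.03 for the E14 class, 0.03 to 0.05 for the IPC class, -0.06 to -0.03 for the Mature class and -0.02 to 0.03 for the Shadow class. The asc minus desc change of the NSC class ranged from 0.08 to 0.19 and kept its sign. The lowest value, 0.08 with medians, was within 2 SE when set beside the SE of the means (0.06). In MAD scores the change was 0.35 ± 0.28, also within 2 SE. In MAD scores the E14 class differed by -0.33 MAD units, with 23 elements above and 45 below the limits, and the cause was not tested. The counts beyond the limits follow the limits by construction. With 0.5% of controls on each side, 76 elements lay above and 102 below, and with 5% 628 above and 622 below. At the nearer bounds of the limits' intervals, chosen after seeing the data, 523 lay below, and at the farther bounds 236 lay above. With 0.5% of controls above the column limit, the NSC class exceeded it in 1.34% at E15 and 0.917% at E14, and the E14 class in 0.652% at E15 and 0.543% at E14. The excess at E14 seen at 2.5% was thus not kept in either class, and so strict a limit rests on few controls. With an adjusted p under 0.01 in place of 0.05, 789 elements were called at E15 only, 1026 at E14 only and 193 at both ages. No paired analysis was possible because the table holds 1 pooled value per age, and replicates could not be left out for the same reason. Depth is unknown, so its part in the spread of single elements was not tested.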
